A study of Mus musculus with 6 samples.

Results

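The BCL2 family genes examined here are 10 regulators of the mitochondrial pathway of apoptosis, chosen by gene name among the 22880 genes of the deposited table. They are the 3 anti-apoptotic genes Bcl2, Bcl2l1 and Mcl1, the 2 effector genes Bax and Bak1, and the 5 BH3-only genes Bcl2l11, Pmaip1, Bbc3, Bid and Bad. All 10 names were found, each in 1 row. Their transcripts were compared between Mock and HIF-1α-KD tumor cells, with 3 libraries in each group. Both groups consist of MC-38GFP cells, a line from a mouse adenocarcinoma of the colon marked with green fluorescent protein, and both were transduced with the vector pLKO.1-puro. In the HIF-1α-KD cells HIF-1α, the oxygen-regulated subunit of hypoxia-inducible factor, was knocked down, whereas the Mock cells carried a mock control. The cells were injected into the cecum wall of C57BL/6J mice, whose own stromal cells retain HIF-1α, and living GFP+ CD45- CD31- cells were sorted from the resulting tumors. The age of the mice, whether a library stands for 1 tumor, and whether a line is a single clone are not given in the sources used here, so p-values measure the spread between these libraries, which may be in part technical.

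Proteins of the BCL2 family decide whether the outer membrane of the mitochondrion stays intact. The effectors BAX and BAK form pores through which cytochrome c leaves to activate caspases, the anti-apoptotic proteins BCL-2, BCL-XL (gene Bcl2l1) and MCL-1 hold them in check, and the BH3-only proteins BIM (Bcl2l11), NOXA (Pmaip1), PUMA (Bbc3), BID and BAD report stress by binding the former groups. The more distant relatives BNIP3 and NIX (Bnip3l) are best known as receptors for the removal of mitochondria by autophagy and as targets of HIF-1.

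Reads counted on genes were between 19845765 and 30809139 per library. The targeted gene Hif1a had 6914, 5424 and 4945 normalized counts (reads divided by 1 factor per library) across the Mock replicates and 697.3, 3142 and 1928 across the knockdown replicates, each below every Mock library and lowest in HIF-1α-KD replicate 1, although its log2 difference of -1.82 did not pass limma's test over all genes (adjusted p = 0.219). Car9, carbonic anhydrase 9, a classical hypoxia marker, had 4470, 3382 and 4356 against 212.3, 663.1 and 1041 normalized counts (log2 difference -2.93), with an adjusted p of 0.0553 in limma and of 0.00207 in DESeq2. The label of a colon adenocarcinoma was not matched by epithelial markers: the summed FPKM (reads scaled to gene width and library total) of the 6 genes Epcam, Krt8, Krt18, Krt19, Cdh1 and Krt20 was between 1.253 and 13.83 in all 6 libraries, with the highest value in Mock replicate 3. The summed FPKM of 10 leukocyte markers was between 97.58 and 106.2 in Mock, 66.67 and 75.59 in HIF-1α-KD replicates 1 and 2, and 363.8 in HIF-1α-KD replicate 3, which therefore stood apart in spite of the sort. The 6 endothelial markers summed to between 5.437 and 6.359 FPKM for Mock and between 3.829 and 5.402 after knockdown. Most of that sum was Cdh5, which was lower in every knockdown library (log2 difference -0.84, limma unadjusted p = 0.013, adjusted p = 0.294). It was the only 1 of 3 tested endothelial markers at an unadjusted limma p-value under 0.05, 33.3% beside 12.7% of all genes. The other 2, Pecam1 and Tek, had positive log2 differences of 0.26 and 1.26 with overlapping groups (limma adjusted p = 0.83 and 0.484). The 7 fibroblast and pericyte markers, most of their sum from Dcn, lay between 544.7 and 973.4 FPKM for Mock and between 420.9 and 710.3 after knockdown. Against the direction of Dcn (log2 difference -0.38), 3 of the 7 were higher at an unadjusted limma p-value under 0.05, 42.9% beside 12.7% of all genes. These were Cspg4 (1.42) and Rgs5 (1.15), each above Mock in every knockdown library, and Pdgfrb (0.59), whose groups overlapped, with adjusted p-values between 0.296 and 0.387 in limma. The marker genes were singled out after their values were seen, and the part of such cells in the results on the BCL2 family was not tested. A lower level of a transcript in bulk RNA cannot be told apart from fewer cells that carry it.

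The 250 bases before the RefSeq transcription start are shown for 3 genes with different outcomes in these libraries, Bcl2 (higher in each HIF-1α-KD library), Bax (overlapping groups) and the relative Bnip3 (strongly lower). The core of the hypoxia response element was searched as ACGTG and as GCGTG on both strands, and capitals mark every match on either strand. Coordinates are those of GRCm38.p6, all 3 genes lie on the minus strand, and the sequences are written 5′ to 3′ in the direction of transcription.
Bcl2, chr1:106714291-106714540: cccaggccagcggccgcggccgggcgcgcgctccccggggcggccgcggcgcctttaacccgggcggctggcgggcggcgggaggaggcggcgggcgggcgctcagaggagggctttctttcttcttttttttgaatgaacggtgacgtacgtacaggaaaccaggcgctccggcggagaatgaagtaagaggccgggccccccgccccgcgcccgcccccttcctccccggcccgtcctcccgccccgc
Bax, chr7:45466899-45467148: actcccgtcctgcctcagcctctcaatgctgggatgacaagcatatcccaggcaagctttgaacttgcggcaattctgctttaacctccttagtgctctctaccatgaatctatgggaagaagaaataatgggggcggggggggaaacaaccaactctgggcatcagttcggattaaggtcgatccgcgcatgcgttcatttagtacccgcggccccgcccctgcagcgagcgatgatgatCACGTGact
Bnip3, chr7:138909507-138909756: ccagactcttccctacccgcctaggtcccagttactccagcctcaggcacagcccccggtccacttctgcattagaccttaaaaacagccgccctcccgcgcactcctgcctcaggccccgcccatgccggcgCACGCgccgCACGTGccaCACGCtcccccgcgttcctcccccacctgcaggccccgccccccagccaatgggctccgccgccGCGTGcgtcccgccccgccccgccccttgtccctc
The window of Bcl2 held neither core. The window of Bax held 1 palindrome CACGTG, which counts as 2 overlapping matches of ACGTG, just before the transcription start. The window of Bnip3 held 1 such palindrome and 3 matches of GCGTG. Among all 32841 windows of this length, 16.6% held ACGTG, 28.2% held GCGTG and 38.6% held at least 1 of them. For 9 of the 10 members (all but Pmaip1) 15 windows were searched, and 8 of the 15 held at least 1 of the cores. Some members had more than 1 window, and windows of Bbc3 overlapped, so these are not independent. Counted by gene, 5 of the 9 members held at least 1 core and 2 held ACGTG. A match describes these letters alone.

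Levels of the members, compared per length as mean FPKM over the 6 libraries, ranged over more than 3 orders of magnitude. Bak1 was the most abundant at 127 FPKM, followed by Bax at 78.1, Mcl1 at 65.9, Bad at 56.6, Bcl2l1 at 34.5, Bid at 17.96, Bcl2l11 at 13.7, Bbc3 at 2.74, Bcl2 at 1.43 and Pmaip1 at 0.0709. Among these 10 members both effectors thus stood at the top and the founding member Bcl2 near the lower end. The order of neighbours held in 6 of 6 libraries for 6 of the 9 neighbouring pairs. It held in 5 libraries for Bax over Mcl1 and for Bid over Bcl2l11, and in 4 for Mcl1 over Bad, so the order within these pairs varied between libraries. Differences between genes were not tested. Among all 12014 genes that passed the filter on low counts, Bak1 lay at the percentile 92.4 of mean FPKM and Bcl2 at the percentile 13.5. Pmaip1 did not pass that filter.

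**Figure D1:**
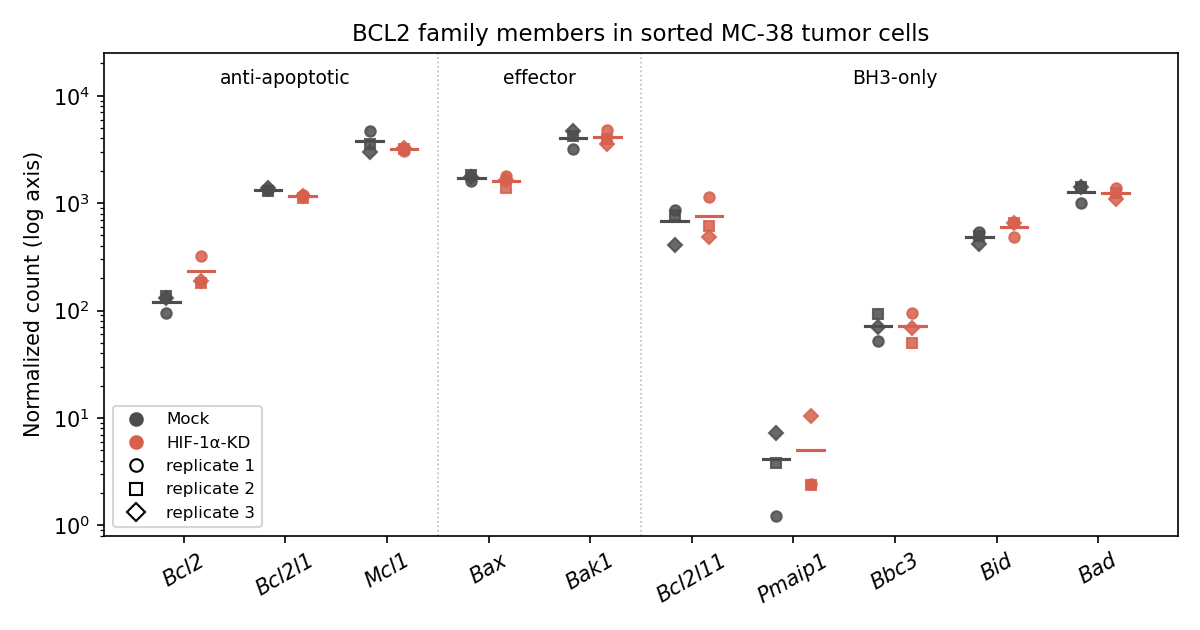
Normalized count (log axis) of each of the 10 BCL2 family genes in the 3 Mock (grey) and 3 HIF-1α-KD (red) libraries, where symbols mark the replicate number and horizontal bars the group mean. For Bcl2 every HIF-1α-KD library (182.3 to 322.5) lies above every Mock library (94.79 to 135.9), for Bcl2l1 every HIF-1α-KD library lies slightly below, and the groups overlap for the other 8 genes.

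To ask whether knockdown of HIF-1α altered transcripts of the family, each gene was compared between the groups with limma on log2 of the normalized count plus 1. The log2 fold change is positive where HIF-1α-KD cells had more of a transcript, intervals are 95% intervals, and p-values were adjusted over the 12014 genes. Of the 9 members tested, 0 passed an adjusted p-value under 0.05 in limma, where 0.391% of all genes did (0.00832% higher and 0.383% lower). The count was also 0 in the quasi-likelihood test of edgeR, which called 0.391% of all genes, and in the Wald test of DESeq2, which called 2.36%. With limma p-values left unadjusted (threshold 0.05), 1 member was higher and 0 were lower, which is 11.1% of the 9, beside 12.7% of all genes (7.04% higher and 5.69% lower). The groups did not overlap in 1 member with HIF-1α-KD above and 1 with HIF-1α-KD below Mock, 22.2% together, beside 19.2% of all genes (10.4% above and 8.75% below). Members called and members without overlap were thus about as frequent as among all genes. The median log2 fold change was -0.01 over the 9 members and 0.02 over all genes tested.

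Bcl2 (ENSMUSG00000057329, chromosome 1, 106538178 to 106714274, minus strand) encodes the anti-apoptotic protein that gave the family its name. It reached 94.79, 135.9 and 130.5 normalized counts across the Mock replicates and 322.5, 182.3 and 188.3 across the knockdown replicates. All 3 HIF-1α-KD libraries were above all 3 Mock libraries, and HIF-1α-KD replicate 1, the library with the least Hif1a, was the highest. That library was also the highest of all for Bak1 (4811), Bcl2l11 (1151) and Bbc3 (94.1), but not for the remaining members. A link between Bcl2 and the level of Hif1a was not tested. Group means were 120 ± 22.3 for Mock and 231 ± 79.3 after knockdown (SD, n = 3 each). The log2 fold change, 0.90 (standard error 0.29, interval 0.24 to 1.56), or 1.87-fold, had an unadjusted p-value of 0.0135 in limma and an adjusted p-value of 0.294. Without HIF-1α-KD replicate 1 the log2 fold change was 0.64 (limma adjusted p = 0.407), while leaving out Mock replicate 1, the lowest library, gave 0.74 (limma adjusted p = 0.59). Leaving out HIF-1α-KD replicate 3, where leukocyte marker RNA was highest, gave 1.02 (limma adjusted p = 0.3065). Few reads stood behind these values, namely 77, 142 and 108 for Mock and 401, 152 and 163 after knockdown.

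Bcl2l1 (ENSMUSG00000007659, chromosome 2, 152780668 to 152831728, minus strand) gives rise to the anti-apoptotic BCL-XL and, by splicing, to a short pro-apoptotic form, and counts per gene do not separate these forms. Its normalized counts were 1316, 1309 and 1392 across Mock and 1186, 1116 and 1167 across knockdown replicates. Every HIF-1α-KD library was below every Mock library by a small margin. The log2 fold change was -0.21 (standard error 0.13, interval -0.51 to 0.09, limma adjusted p = 0.548). Replicates of Bcl2l1 were among the tightest of all genes, with a within-group SD of 0.047 on the log2 scale, at the percentile 0.366 of the genes tested, where the median gene had 0.253. The standard error of limma exceeds what this SD alone would give, because it draws on genes of similar level.

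Mcl1 (ENSMUSG00000038612, chromosome 3, 95658788 to 95663176, plus strand) encodes a short-lived anti-apoptotic protein and was the most abundant of the 3 anti-apoptotic members. It reached 4737, 3567 and 3025 normalized counts across the Mock replicates and 3035, 3202 and 3248 across the knockdown replicates. The groups overlapped, because Mock replicate 1 was the highest and Mock replicate 3 the lowest of all 6. The log2 fold change of -0.23 (interval -0.63 to 0.17, limma adjusted p = 0.622) became -0.06 without Mock replicate 1.

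The effectors did not pass the test. Bax (ENSMUSG00000003873, chromosome 7, 45461697 to 45466898, minus strand) reached 1598, 1838 and 1760 normalized counts across the Mock replicates and 1779, 1393 and 1633 across the knockdown replicates, with a log2 group difference of -0.12 (interval -0.46 to 0.22, limma adjusted p = 0.785). Bak1 (ENSMUSG00000057789, chromosome 17, 27019810 to 27029009, minus strand) had 3171, 4184 and 4670 across Mock and 4811, 3996 and 3566 across knockdown replicates, with a log2 group difference of 0.05 (interval -0.37 to 0.47, limma adjusted p = 0.936). The groups overlapped for both genes, and replicate 1 was the lowest Mock library of each and the highest HIF-1α-KD library of each.

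Of the 4 BH3-only members tested, Bid had the largest fitted difference and Bcl2l11 the widest spread between libraries, and neither passed the test. Bid (ENSMUSG00000004446, chromosome 6, 120891930 to 120916853, minus strand), whose protein links death receptors to mitochondria after cleavage by caspase-8, reached 541.7, 491.9 and 417.9 normalized counts across the Mock replicates and 487.4, 657.1 and 646.9 across the knockdown replicates. HIF-1α-KD replicates 2 and 3 lay above Mock and HIF-1α-KD replicate 1 lay within it, for a log2 group difference of 0.30 (interval -0.14 to 0.74, limma adjusted p = 0.557). Bcl2l11 (ENSMUSG00000027381, chromosome 2, 128126038 to 128162547, plus strand), encoding BIM, had 871.6, 780.9 and 404.7 across Mock and 1151, 615.1 and 487.5 across knockdown replicates. In both groups replicate 1 was the highest and replicate 3 the lowest, and the within-group SD of 0.62 on the log2 scale was at the percentile 88.7 of all genes. Its log2 fold change of 0.11 (interval -0.74 to 0.95, limma adjusted p = 0.93) changed to -0.25 without HIF-1α-KD replicate 1 and to 0.37 without HIF-1α-KD replicate 3. Among the 9 tested members, Bcl2l11 had the widest such range.

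Bad (ENSMUSG00000024959, chromosome 19, 6941861 to 6951899, plus strand), a BH3-only protein switched off by phosphorylation under growth factor signaling, was the most abundant of the 5 BH3-only members. It reached 1001, 1406 and 1418 normalized counts across the Mock replicates and 1369, 1236 and 1095 across the knockdown replicates, and a log2 group difference of -0.04 (interval -0.45 to 0.38, limma adjusted p = 0.949). Bbc3 (ENSMUSG00000002083, chromosome 7, 16308393 to 16318205, plus strand), which encodes the p53-inducible PUMA, had 51.7, 91.87 and 70.06 across Mock and 94.1, 50.36 and 69.31 across knockdown replicates. The group means of Bbc3 were 71.2 ± 20.1 (SD, n = 3) and 71.3 ± 21.9 (SD, n = 3), and its log2 fold change was -0.01 (interval -0.80 to 0.79, limma adjusted p = 0.997). Pmaip1 (ENSMUSG00000024521, chromosome 18, 66458533 to 66465565, plus strand), encoding NOXA, the partner of MCL-1, had 1, 4 and 6 reads across Mock and 3, 2 and 9 reads across knockdown replicates and did not pass the filter on low counts. In a limma fit without that filter its adjusted p was 0.936, and a difference was not detectable at this depth. On the genome, Bad, Bak1 and Bid each overlap a gene of the opposite strand that is also in the table (Gpr137, Ggnbp1 and Bcl2l13), so their reads could be mixed if counting did not use the strand. The paper's methods name a stranded TruSeq kit, the labels a TruSeq kit without that word, and whether counting used the strand is not given in the sources used here.

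**Figure D2:**
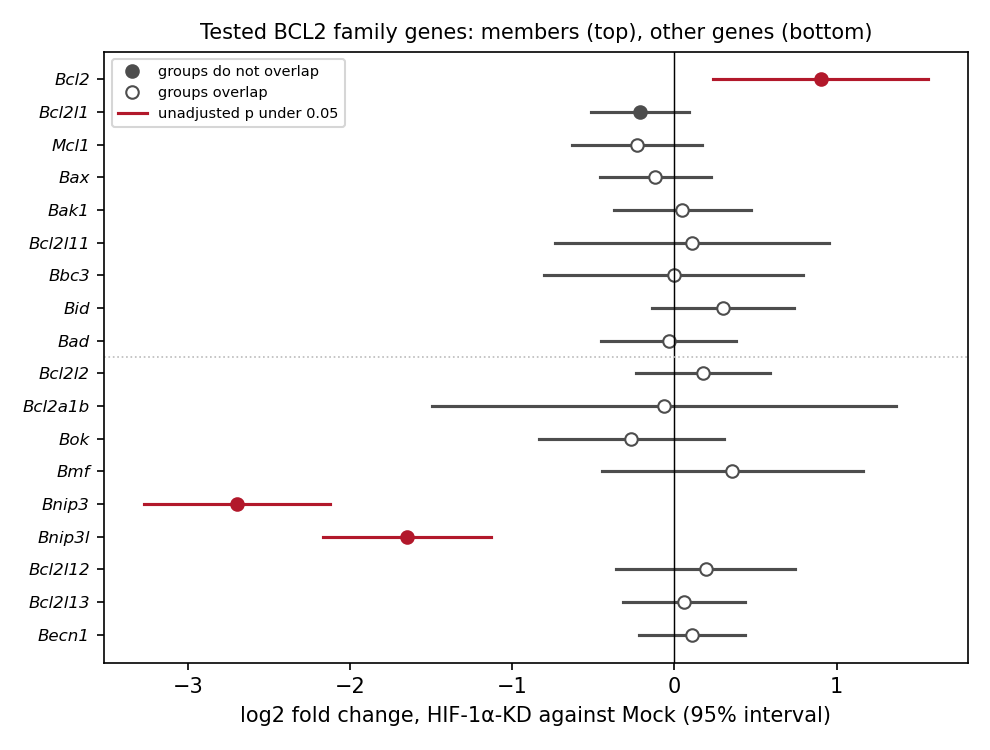
Log2 fold change (HIF-1α-KD against Mock) with its 95% interval from limma for the 9 tested members (above the dotted line) and 9 other tested genes of the family (below it), where filled symbols mark groups that do not overlap and red marks an unadjusted p-value under 0.05. Bcl2 lies at 0.90, Bnip3 at -2.70 and Bnip3l at -1.65, while the intervals of the other genes include 0.

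The mixture of the 10 transcripts was compared next, as shares of their summed FPKM. The 10 transcripts together had between 367 and 430 FPKM per library, with means of 399 ± 31.6 for Mock and 398 ± 25.4 after knockdown (SD, n = 3 each). Effectors held 50.8% ± 4.94 of this sum in Mock and 52.1% ± 1.91 in HIF-1α-KD cells (SD, n = 3 each), anti-apoptotic genes 27.2% ± 5.25 and 24.2% ± 2.29, and BH3-only genes 22.0% ± 1.17 and 23.7% ± 0.917. The groups overlapped for each of the 3 classes. Mcl1 supplied 64.8% ± 5.78 of the anti-apoptotic FPKM in Mock and 63.9% ± 1.77 in HIF-1α-KD cells. Bcl2, the tested member with the largest fold change, supplied 0.604%, 1.05% and 1.09% of it across Mock and 2.81%, 1.58% and 1.597% across knockdown replicates, a share that was higher in each HIF-1α-KD library and small in all 6. The log2 ratio of summed BH3-only to summed anti-apoptotic FPKM, given as a description without a test, was -0.64, -0.10 and -0.14 across Mock and 0.15, -0.03 and -0.20 across knockdown replicates. The groups overlapped, and the difference of their means was 0.26, beside an SD of 0.30 among Mock libraries, where replicate 1 stood lowest, and of 0.18 among HIF-1α-KD libraries. With log2 FPKM averaged over the genes of each class, so that rare transcripts weigh as much as abundant ones, the difference was -0.027.

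**Figure D3:**
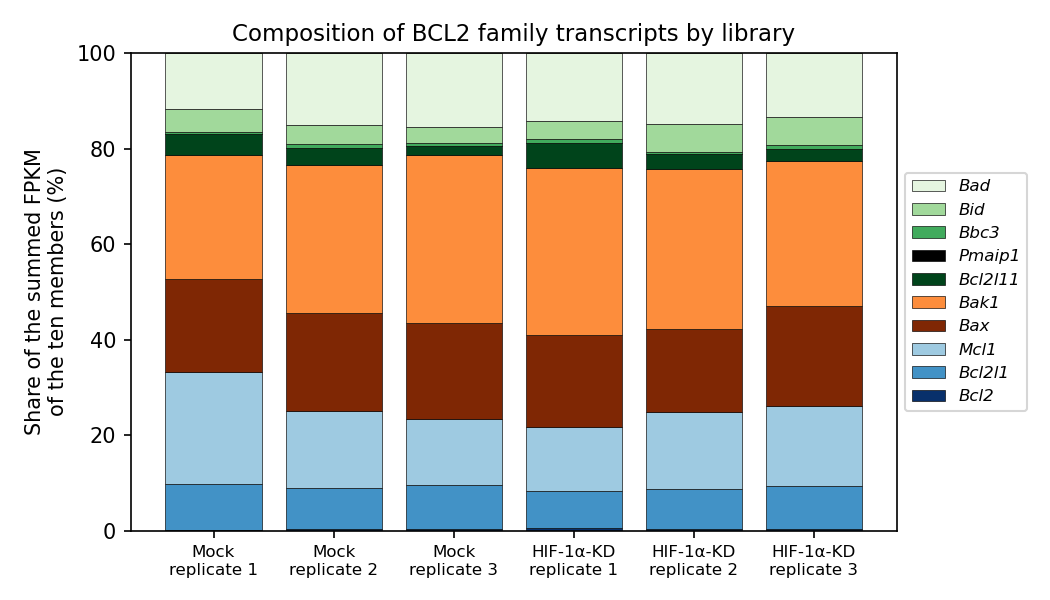
Share of each gene in the summed FPKM of the 10 members (%), stacked for each of the 6 libraries, with anti-apoptotic genes in blue, effectors in brown and orange, and BH3-only genes in green (Pmaip1, in black, is too small to see). Bak1, Bax and Mcl1 fill most of every bar, Bcl2 holds between 0.201% and 0.607%, and Mock replicate 1 has the largest share of Mcl1 (23.5%).

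The other 16 genes of the family were listed too, and 9 of them passed the filter. Of these 9, 2 were lower and 0 higher at an adjusted limma p-value under 0.05, both from the BNIP3 group, where 0.383% of all genes were lower and 0.00832% higher. Bnip3 reached 12980, 7365 and 7747 normalized counts across the Mock replicates and 1088, 1421 and 1753 across the knockdown replicates. All HIF-1α-KD libraries were far below Mock, for a log2 group difference of -2.70 (standard error 0.25, limma adjusted p = 0.0205). Bnip3l fell from 7058, 4098 and 4060 to 1405, 1805 and 1507 normalized counts, a log2 group difference of -1.65 (standard error 0.23, limma adjusted p = 0.0281). The difference of Bnip3 was not called without Mock replicate 3 (limma adjusted p = 0.0907) and without HIF-1α-KD replicate 2 (limma adjusted p = 0.0588), with log2 fold changes of -2.81 and -2.71. That of Bnip3l was not called when any 1 library was left out (limma adjusted p between 0.0507 and 0.0907), with log2 fold changes between -1.78 and -1.38. With a block for replicate number, the adjusted limma p-values were 0.0514 for Bnip3 and 0.0727 for Bnip3l at the same fold changes. Both genes were also called by edgeR (adjusted p = 0.0211 and 0.0262) and by DESeq2 (adjusted p = 6.1e-21 and 3.28e-09). The autophagy regulator Becn1, next in mean FPKM after these 2 genes, had a log2 group difference of 0.11 (interval -0.22 to 0.43, limma adjusted p = 0.797).

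**Figure D4:**
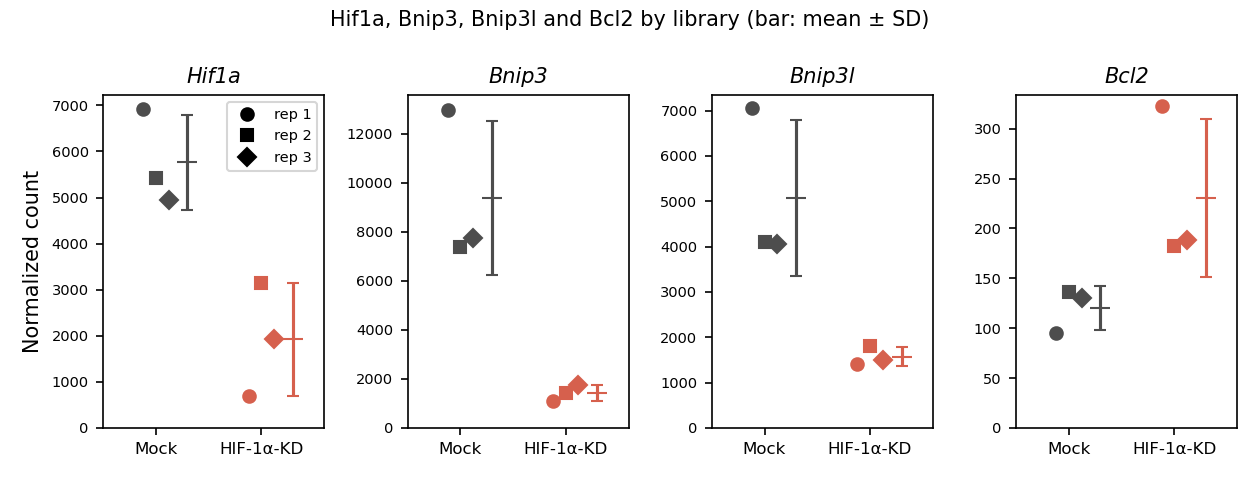
Normalized count of Hif1a, Bnip3, Bnip3l and Bcl2 in each Mock (grey) and HIF-1α-KD (red) library, with the group mean ± SD beside the points and the replicate number as symbol. In HIF-1α-KD replicate 1, Hif1a (697.3), Bnip3 (1088) and Bnip3l (1405) are the lowest and Bcl2 (322.5) is the highest of all libraries. Whether these ranks are linked was not tested.

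For the remaining tested genes of this list the groups overlapped. The anti-apoptotic Bcl2l2 (BCL-W) had a log2 group difference of 0.17 (interval -0.24 to 0.59) and the effector-like Bok one of -0.27 (interval -0.84 to 0.31). Bmf, a BH3-only gene, reached 813.7, 768.5 and 401 normalized counts across the Mock replicates and 1303, 670.3 and 604.1 across the knockdown replicates, and its 6 libraries ranked in the same order as those of Bcl2l11, a likeness singled out after the values were seen. Bcl2a1b, an anti-apoptotic gene of hematopoietic cells, had 29.76 and 22.78 in HIF-1α-KD replicates 1 and 2 and 143.2 in replicate 3, the library with 363.8 summed FPKM of leukocyte markers, against 43.49 to 56.63 in Mock. The part of these leukocyte transcripts in the value was not tested. Bcl2a1b, Bcl2a1a and Bcl2a1d are near-identical copies, so the split of reads among them is uncertain. Bcl2l10 and Hrk had 0 reads in all 6 libraries.

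Downstream of the family, the 20 genes of the mitochondrial apoptosis machinery all passed the filter. None (0 of 20) had an adjusted p-value under 0.05 in limma, edgeR or DESeq2, and with unadjusted p-values 1 passed as higher and 2 as lower at 0.05, 15% of the list beside 12.7% of all genes. Their median log2 fold change was -0.02. Vdac1, the main channel of the outer mitochondrial membrane, reached 19250, 16180 and 15910 normalized counts across the Mock replicates and 13500, 12020 and 11360 across the knockdown replicates, without overlap, and a log2 group difference of -0.48 (interval -0.80 to -0.15, limma adjusted p = 0.276). Its relatives Vdac2 and Vdac3 had log2 fold changes of -0.23 (interval -0.56 to 0.09) and -0.24 (interval -0.63 to 0.15), with overlapping groups. Casp6, an executioner caspase, had 698, 580.9 and 546 across Mock and 362.7, 462.8 and 391.6 across knockdown replicates, again without overlap, and a log2 group difference of -0.58 (interval -0.999 to -0.167, limma adjusted p = 0.29). Birc6, a large inhibitor of apoptosis protein, had 2761, 3943 and 2787 across Mock and 4917, 4700 and 4229 across knockdown replicates, a log2 group difference of 0.56 (interval 0.17 to 0.95, limma adjusted p = 0.276). The genes of the apoptosome had small fitted log2 fold changes, 0.01 for Cycs (interval -0.31 to 0.33), 0.01 for Apaf1 (interval -0.46 to 0.49) and 0.02 for Casp9 (interval -0.42 to 0.47), 3 genes singled out after their values were seen.

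Upstream, 18 of 19 listed regulators of BCL2 family genes and proteins passed the filter. With an adjusted p-value under 0.05 there were 0 of 18 in limma, edgeR or DESeq2, and with unadjusted p-values 2 passed as higher and 1 as lower at 0.05, 16.7% beside 12.7% of all genes. Each of these unadjusted calls was lost in at least 1 alternative run, as given in the last section. The median log2 fold change of the list was -0.02. Pim1, a kinase that phosphorylates BAD, had 407.5, 305.3 and 310.4 across Mock and 253.4, 122.3 and 192.9 across knockdown replicates, without overlap, and a log2 group difference of -0.89 (interval -1.55 to -0.24, limma adjusted p = 0.294). Huwe1, a ubiquitin ligase for MCL-1, had 5148, 7822 and 7304 across Mock and 9184, 8670 and 10010 across knockdown replicates, a log2 group difference of 0.48 (interval 0.07 to 0.89, limma adjusted p = 0.339). Stat3, a transcription factor that induces Mcl1 and Bcl2l1, had a log2 group difference of 0.49 (interval 0.01 to 0.96, limma adjusted p = 0.385), and its groups overlapped. Akt1, Atf4 and Ppp3ca, the 3 regulators with the highest mean FPKM, had log2 fold changes of 0.15, 0.03 and -0.11, each with an interval that includes 0. Trp73 had 0 reads in all 6 libraries.

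**Figure D5:**
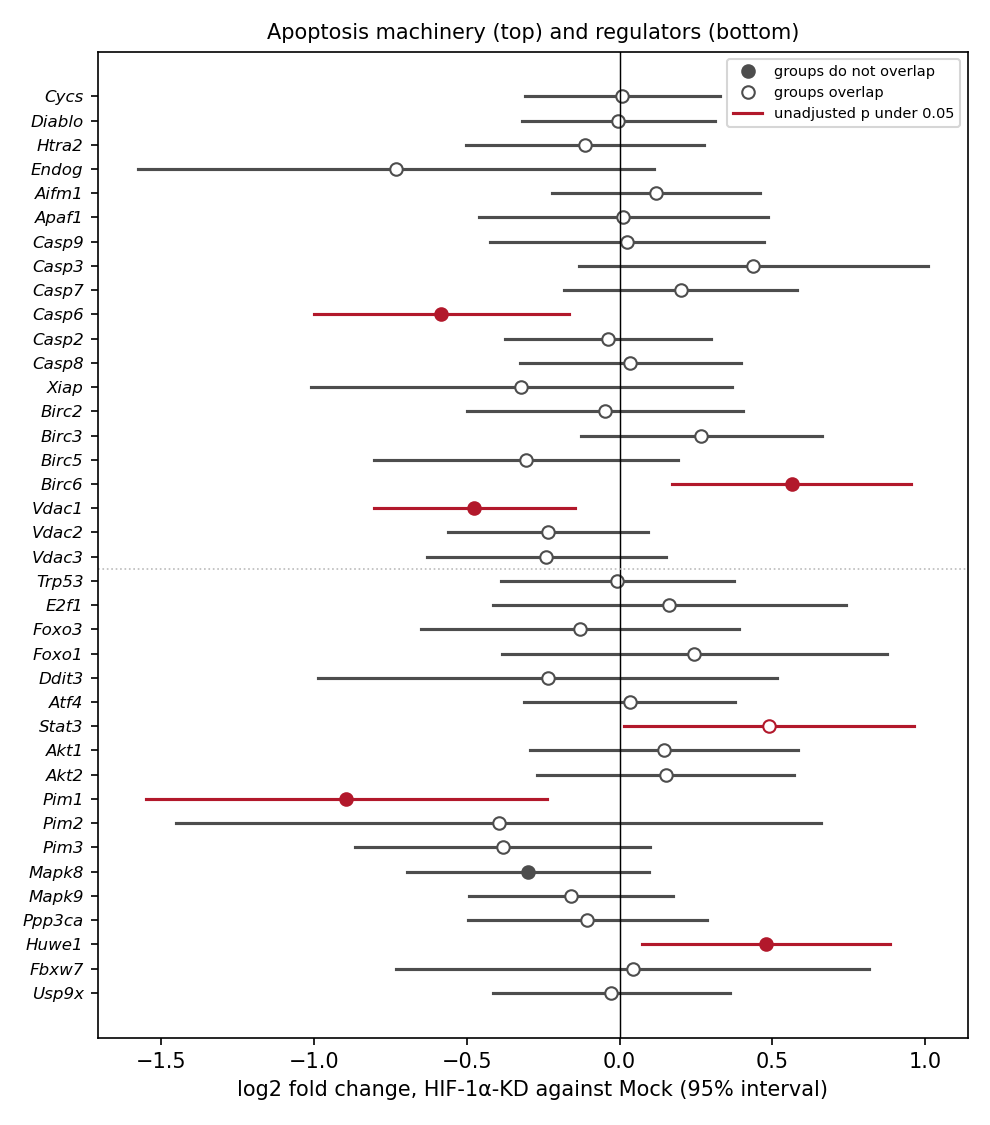
Log2 fold change (HIF-1α-KD against Mock) with its 95% interval from limma for the 20 genes of the apoptosis machinery (above the dotted line) and the 18 tested regulators (below it), where filled symbols mark groups that do not overlap and red marks an unadjusted p-value under 0.05. Red genes lie on both sides of 0, from -0.89 for Pim1 to 0.56 for Birc6.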

How the data were processed

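After trimming, the authors mapped reads with STAR and assigned them to genes with featureCounts. The paper's methods name DESeq2 and the human assembly GRCh38, whereas the submitters' processing notes name edgeR and GRCm38, and gene identifiers are those of mouse. The authors deposited normalized counts, a signal in which each count was divided by 1 factor per library, and FPKM values per gene width. They also deposited a GC content as a fraction (not used), the gene width in bases, and a log2 ratio, p-value and false discovery rate of their own comparison (not used). All per-sample columns were matched to titles.

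Reads were recovered by dividing by the value of 1 read, and 100% of values up to 300 reads were within 0.1 of a whole number. The deposited values carry 4 significant digits, which makes larger counts approximate. Genes were filtered on reads (filterByExpr by group, minimum count of 10), which kept 12014 genes. The main test was limma 3.58.1 (mean-variance trend, two-sided, log2 of normalized count plus 1, Benjamini-Hochberg over all genes tested). The tests edgeR 4.0.16 and DESeq2 1.42.0 on recovered reads (R 4.3.3) were alternatives, and fits were tested on simulated data. An exact permutation test of 3 against 3 libraries cannot go below 0.1. Gene positions come from GENCODE M21 (GRCm38) by Ensembl identifier, promoters from RefSeq (GRCm38.p6). Members and lists were chosen with earlier results of these data known. Named were all members, and of each list the genes at an unadjusted p-value under 0.05 (at most 6 by size) and the 3 with the highest mean FPKM, beside Hif1a and Car9. Bcl2l2, Bok, Bmf, Bcl2a1b, Cycs, Apaf1, Casp9, the genes at 0 reads and the marker genes fall outside this rule and were named after their values were seen.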

Additional observations from a re-analysis of the deposited data

How the results depend on the processing

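Counts of members at an adjusted (0) or unadjusted p-value under 0.05 (1, Bcl2) were the same under each alternative run: edgeR, DESeq2, limma-voom, scaling by TMM or library size, no filter, pseudocounts of 0.1 and 10, a block for replicate number, and each library left out. Over all genes, the 47 calls became 283 with DESeq2 and 0 with the block, and between 0 and 38 when a library was left out (38 without HIF-1α-KD replicate 1, at most 11 without any other). Scaling by library size alone moved the median log2 fold change of all genes from 0.02 to 0.08, and with it Bbc3 from -0.01 to 0.049 and Bad from -0.04 to 0.021, so these signs follow the scaling. With a library left out, the log2 fold change spanned 0 for Bak1 (-0.11 to 0.17), Bcl2l11 (-0.25 to 0.37), Bbc3 (-0.23 to 0.22), Bad (-0.20 to 0.050), Akt1 (-0.073 to 0.26), Atf4 (-0.063 to 0.15) and Ppp3ca (-0.22 to 0.046). It kept its sign but moved by over 1.5 times for Mcl1 (-0.38 to -0.06), Bax (-0.20 to -0.02), Bid (down to 0.20), Becn1 (0.05 to 0.20), Vdac3 (-0.38 to -0.10) and Huwe1 (down to 0.29). The count at an unadjusted p-value under 0.05 was, with a library left out, between 3 and 5 for the machinery and between 1 and 3 for the regulators. The ratio of BH3-only to anti-apoptotic FPKM moved from 0.26 to -0.027 with averaged log2 FPKM and to 0.089 without Mock replicate 1. The cause of the moves other than the scaling was not tested. Deviations of same-numbered libraries from their group means correlated at -0.139, -0.123 and 0.0228 across genes, and those of different-numbered libraries between -0.0716 and 0.162. With 3 libraries per group, these values cannot decide whether libraries were handled in pairs. The block for replicate number gave Bcl2 an adjusted limma p of 0.4085 and left Bnip3 and Bnip3l uncalled. Pmaip1, with 11 reads over Mock and 14 over knockdown libraries, entered the limma fit without a filter only and was not called (adjusted p = 0.936).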
